A study of Homo sapiens with 17 samples.

Results

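The peaks described here are the mitochondrial transfer RNA (tRNA) peaks of an eCLIP study of 6 proteins. They are the deposited peaks on the mitochondrial chromosome of the hg19 build whose midpoint lay, on the matching strand, in 1 of 17 intervals that together hold the 22 mitochondrial tRNA genes. Position and strand chose them, and no measured value did. There were 141 such peaks among 389788 peaks in 11 lists, and among 1486 peaks on the mitochondrial chromosome.

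In eCLIP, RNA is crosslinked to protein in living cells, complexes of a chosen protein are immunoprecipitated, and the RNA pieces they hold are sequenced. The cells were 293T, a human embryonic kidney line, and all groups shared the same handling: ultraviolet light at 254 nm (400 mJ per square cm), limited RNase I digestion and a gel slice up to 75 kDa above the protein. The groups differed in the antibody and, with the protein's size, in the gel slice. The antibodies were against RNF219, a RING finger protein (1 library), VIM, the intermediate filament protein vimentin (2 libraries), ZNF184, a zinc finger protein (2), AIFM1, a mitochondrial flavoprotein (2), NUMA1, which organises spindle poles in mitosis (2), or RANGAP1, the activator of the Ran GTPase (2). Each protein had 1 size-matched input, cut from the same gel window without pull-down, and replicates of a protein shared that input, 6 inputs in all. No genotype, drug or time differed between groups, and RNF219 has no second library with which to check its values.

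Mitochondrial tRNAs bring amino acids to the ribosomes that translate the proteins encoded in the mitochondrial genome. The genome is transcribed from both strands into long precursors, in which tRNAs stand between messenger and ribosomal RNAs. Nucleases cut the tRNAs out at both ends, the sequence CCA is added to the 3′ end, and many bases are modified. In human mitochondria the valine tRNA (MT-TV) is also a structural part of the large ribosomal subunit, and the serine tRNA encoded by MT-TS2 lacks the D arm of the usual cloverleaf.

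The value of a peak is the log2 fold of eCLIP over input that the authors deposited. A peak is called significant here when its log2 fold reaches 3 (8-fold) with a -log10 p of at least 3, also the authors' value. The shortest list had 10682 peaks (VIM replicate 1) and the longest 63198 (ZNF184 replicate 1). Total reads are unknown, but the ratio of input depth to eCLIP depth could be recovered from the folds and ran between 0.534 in AIFM1 replicate 2 and 4.84 in VIM replicate 1. Read numbers given below were recovered in the same way, and intervals on folds cover counting error only, since reads can hold PCR copies. Where p was at the end of its range, only the least read numbers that give the fold are known. The recovery cannot separate 0 input reads from 1, so wherever 1 input read is given there may have been none. The series calls the replicates biological and says no more, so the tests measure the spread between these libraries.

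Peaks lay on 13 of the 22 tRNAs. Of the 14 tRNAs encoded on the plus strand 10 had a peak, and of the 8 on the minus strand 3 did. The tRNA genes described most fully here lie, in hg19 chrM coordinates, at 579 to 649 (MT-TF), 1604 to 1672 (MT-TV), 4404 to 4471 (MT-TM) and 9993 to 10060 (MT-TG) on the plus strand, and at 5828 to 5893 (MT-TY) and 15958 to 16025 (MT-TP) on the minus strand. MT-TV (valine), MT-TM (methionine), MT-TH (histidine), MT-TY (tyrosine) and MT-TP (proline) had a peak in all 11 libraries. MT-TF (phenylalanine), MT-TG (glycine), MT-TS2 (serine) and MT-TL2 (leucine) had one in 10 libraries, all but AIFM1 replicate 1, so that 9 tRNAs were covered with all 6 proteins. MT-TI (isoleucine) had peaks in 5 libraries, MT-TT (threonine) and MT-TL1 (leucine) in 4 each, and MT-TE (glutamate) in 1. No peak midpoint fell in the other 9 tRNAs, those for tryptophan (MT-TW), aspartate (MT-TD), lysine (MT-TK), arginine (MT-TR), glutamine (MT-TQ), alanine (MT-TA), asparagine (MT-TN), cysteine (MT-TC) and serine (MT-TS1). For 8 of these 9 no peak overlapped the gene at all, and 4 peaks of MT-TY reached base 5828, which MT-TY shares with MT-TC.

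Nearly all of these peaks lay within a tRNA. Of the 141 peaks, 140 lay wholly inside an interval, and their median width was 25 nt (2 to 42). The exception ran over the edge of MT-TP by 1 nt, at 15957 to 15989 in ZNF184 replicate 2. A 2-nt peak at 12208 to 12209, in both VIM libraries, lay across the border of MT-TH and MT-TS2 and was given to neither. No other peak overlapped an interval on its strand, and none had its midpoint opposite a tRNA on the other strand. Many tRNAs were covered by several abutting peaks: 29 pairs of peaks touched, and in 18 of them the folds were within 0.1 on the log2 scale. Such pieces are not independent, and merging them leaves 112 sites.

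Significant peaks made up a larger share of the tRNA peaks than of the lists as a whole. Of the 141 tRNA peaks 45 were significant, or 31.9% (95% Wilson interval 24.8 to 40.0%, with peaks taken as independent), against 2.41% of all 389788 peaks. Counted by site, 31 of 112 were. They lay on 10 tRNAs, and their number differed widely between proteins. With a log2 fold of at least 4 there were 25 (0.928% of all peaks), with at least 1 there were 81 (6.47%), and with a -log10 p of at least 5 there were 45 (1.21%). RNF219 had 14 of 16, VIM 5 of 12 and 10 of 18, ZNF184 3 of 12 and 7 of 13, AIFM1 1 of 5 and 3 of 12, RANGAP1 2 of 16 and 0 of 11, and NUMA1 0 of 13 in each library. The shares of all peaks called in the same libraries were 0.926% for RNF219, 5.29% and 4.5% for VIM, 3.15% and 4.82% for ZNF184, 0.216% and 0.214% for AIFM1, 1.52% and 2.99% for RANGAP1, and 1.51% and 0.877% for NUMA1. A count of 0 among 13 peaks allows a share of up to 23.1%, and among 11 peaks up to 27.3%, so the NUMA1 lists and RANGAP1 replicate 2 do not show a share under their background.

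**Figure D1:**
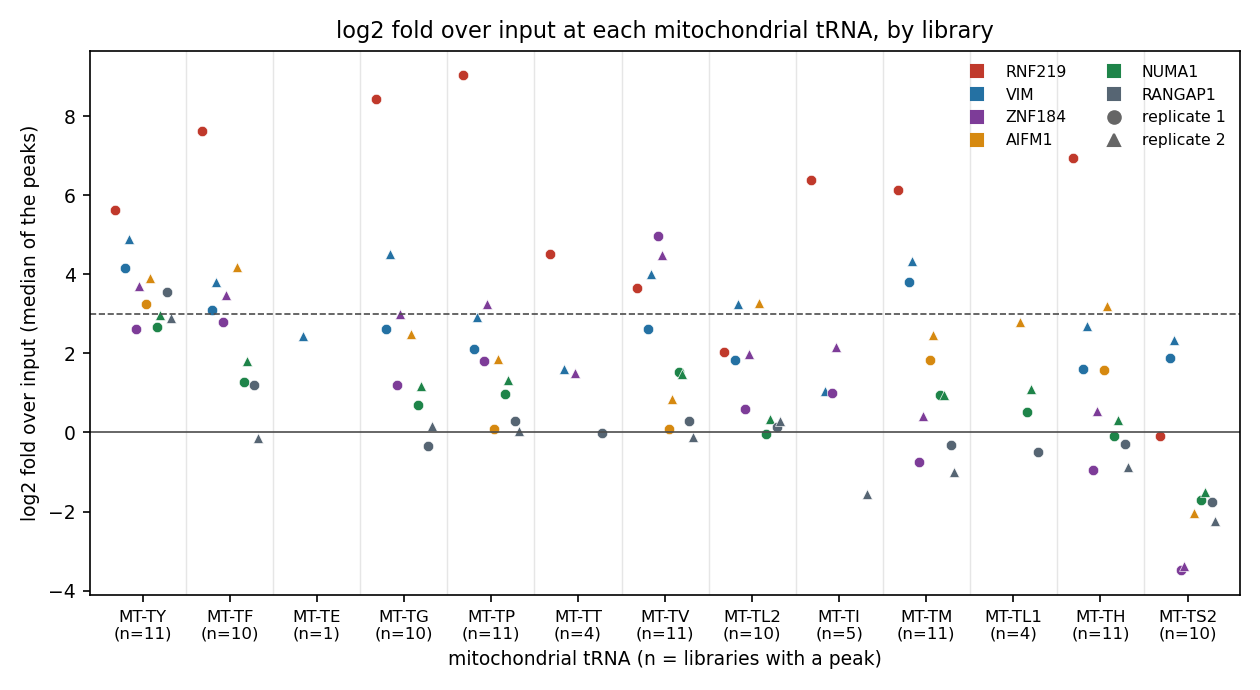
Log2 fold of eCLIP over input (vertical axis) at each of the 13 mitochondrial tRNAs with a peak (horizontal axis, with the number of libraries that have one), as the median of the peaks of that tRNA in a library. Colours are proteins, circles replicate 1 and triangles replicate 2, and the dashed line is the log2 fold of 3; the RNF219 library stands above every other point at 8 of its 11 tRNAs, and MT-TS2 is below 0 in all but the VIM libraries.

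The RNF219 library had its highest fold on a tRNA. Its peak on MT-TP ranked 1 of 24624 in the library, and 14 of its 16 tRNA peaks were among the top 1% of its folds. The median log2 fold over its tRNA peaks was 6.13, against medians between -0.11 and 3.53 in the other 10 libraries. It was 4.49 above the mean of those 10, which was 1.64 ± 1.25 (SD, n = 10), with p = 0.0909 when exact permutation (2-sided) was run over the 11 libraries. With a single library p can go no lower than 0.0909, and the value adjusted over the 6 proteins was 0.273.

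On MT-TP, the proline tRNA, the RNF219 peak at 15959 to 15989 on the minus strand had a log2 fold of 9.03. At least 748 eCLIP reads stood against 1 input read there, which may be 0, and the 95% interval of the log2 fold, taken from these least numbers, was 6.55 to 14.3. The peak on MT-TG, the glycine tRNA, at 10009 to 10050 had a log2 fold of 8.45 (6.60 to 11.5), from at least 999 reads against 2. That on MT-TF, the phenylalanine tRNA, at 597 to 634 had 7.62 (5.77 to 10.7), from at least 563 reads against 2. All 3 sites rest on as few as 1 or 2 input reads, so their folds are loosely bounded above, while the lowest of the 3 lower bounds is 5.77. Folds that rest on more input reads were high too: MT-TM, the methionine tRNA, was covered by 4 RNF219 pieces between 4420 and 4458 with log2 folds of 5.22 to 6.27, each over at least 25 input reads. On MT-TH the 2 pieces had 7.03 and 6.87, over at least 7 and 12 input reads. On MT-TY the peak had 5.64 (5.08 to 6.27) from at least 1781 reads against 25.

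The other RNF219 tRNA peaks rested on fewer reads or had lower folds. MT-TI had a log2 fold of 6.39 from at least 120 reads against 1 (or 0), and MT-TT 4.51 from at least 65 against 2. Both pieces of MT-TV had 3.66 (2.70 to 4.81), each with 162 reads against 9. MT-TL2, with 2.04 from 41 reads against 7, and MT-TS2, with -0.09, were the RNF219 tRNA peaks that were not significant. At 8 of its 11 tRNAs (MT-TP, MT-TI, MT-TG, MT-TH, MT-TF, MT-TT, MT-TM and MT-TY) the RNF219 value was above that of every other library with a peak there. The margin over the highest other library ran between 5.79 on the log2 scale at MT-TP and 0.75 at MT-TY. At MT-TL2, MT-TV and MT-TS2 another library was higher, by 1.23 for AIFM1 replicate 2, by 1.31 for ZNF184 replicate 1 and by 2.43 for VIM replicate 2.

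MT-TY was the tRNA called with most proteins. It was significant in 7 libraries and with 5 proteins, all but NUMA1, and above input in all 11. The log2 fold of MT-TY was 5.64 in RNF219, 4.16 and 4.89 in the VIM replicates, 2.61 and 3.71 in ZNF184, 3.25 and 3.90 in AIFM1, 2.67 and 2.97 in NUMA1, and 3.54 and 2.89 in RANGAP1. It was the highest tRNA in 7 libraries, both of VIM, NUMA1 and RANGAP1 and replicate 1 of AIFM1. In RANGAP1, whose other tRNAs had a log2 fold of at most 1.21, the MT-TY pieces of replicate 1 had 3.51 at 5828 to 5851 and 3.58 at 5852 to 5859. In deposited folds both VIM values were above those of the other 4 replicated proteins. The replicates of ZNF184, AIFM1 and RANGAP1 overlapped, and those of NUMA1 lay below those of AIFM1. VIM folds off the mitochondrial chromosome were higher too, at medians of 2.27 and 2.22 against 1.17 and 0.68 in AIFM1. In VIM replicate 1 that median is the fold of equal eCLIP and input read numbers, set by the depth ratio of 4.84. By rank in its own list, MT-TY was at the top 0.51 and 0.085% in AIFM1 and at 5.99 and 0.59% in VIM. By that rank NUMA1 was lower than AIFM1 and VIM, at 10.5 and 11.5%. ZNF184, at 12.0 and 3.23%, overlapped both VIM and NUMA1, and RANGAP1 overlapped VIM.

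MT-TF was called with 4 proteins, in 6 libraries. Its log2 fold was 7.62 in RNF219, 3.11 and 3.81 with VIM, 2.79 and 3.47 in ZNF184, 4.18 in AIFM1 replicate 2, 1.28 and 1.80 in NUMA1, and 1.21 and -0.13 in RANGAP1. In these medians of deposited folds the VIM and ZNF184 replicates, with AIFM1 replicate 2, were all above those of NUMA1 and RANGAP1. Single pieces overlapped: those of NUMA1 replicate 2 had 0.90 and 2.70, and 1 piece of ZNF184 replicate 1 had 2.56. By rank in its own list the higher of these NUMA1 pieces was at the top 12.1%, and the VIM replicate 1 peak was at 23.8%. The AIFM1 peak, at 616 to 635, had 68 reads against 2 and an interval of 2.28 to 7.26. Another peak of AIFM1 replicate 2, on MT-TH at 12171 to 12199, had 3.20 from 189 reads against 11.

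In ZNF184 the highest tRNA was MT-TV. It was first in both ZNF184 libraries and in none of the other 9, and it had 2 significant pieces in each. The piece at 1617 to 1629 had log2 folds of 5.13 (4.27 to 6.15) in replicate 1 and 4.53 (3.65 to 5.56) in replicate 2, from 283 and 166 eCLIP reads against the same 11 input reads. The piece beside it, at 1630 to 1656 in replicate 1 and 1630 to 1651 in replicate 2, had 4.80 and 4.48. Over its pieces MT-TV had 4.97 and 4.50 in ZNF184, against 3.66 in RNF219, 2.62 and 4.01 with VIM, 0.09 and 0.85 in AIFM1, 1.52 and 1.47 in NUMA1, and 0.30 and -0.11 in RANGAP1. In deposited folds both ZNF184 values were above those of all 9 other libraries, VIM replicate 2 being nearest. By rank in its own list RNF219 lay between the ZNF184 replicates, with both pieces at the top 0.53%. Those of ZNF184 were at 0.16 and 0.25% in replicate 1 and at 0.96 and 1.08% in replicate 2.

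MT-TM was called with RNF219 and VIM and not with the other 4 proteins, although the difference between those sets was not tested. Its log2 fold was 6.13 in RNF219, 3.81 and 4.35 with VIM, -0.75 and 0.42 in ZNF184, 1.83 and 2.47 in AIFM1, 0.95 and 0.95 in NUMA1, and -0.32 and -1.0 in RANGAP1. All 10 of its significant peaks were pieces in RNF219 and VIM. In deposited folds the 2 VIM libraries did not overlap any library of the other 4 replicated proteins. By rank in its own list they did overlap AIFM1. The pieces of AIFM1 replicate 2 were at the top 1.11 and 2.09%, and the AIFM1 replicate 1 peak was at 36.3%. Those of VIM were at 6.49 to 18.1% in replicate 1 and 1.44 to 1.46% in replicate 2. The VIM pieces in replicate 1 had log2 folds between 3.75 and 3.88, the highest at 4447 to 4461. Those in replicate 2 had 4.32 to 4.40, the highest at 4431 to 4441. VIM also had MT-TY peaks of 4.16 and 4.89, from at least 556 and 1368 reads against at least 151, and a peak on MT-TG of 4.53 at 10009 to 10049 in replicate 2.

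MT-TG and MT-TP had their highest value in RNF219 as well. MT-TG had a log2 fold of 8.45 in RNF219, 2.63 and 4.53 with VIM, 1.21 and 3.01 in ZNF184, 2.49 in AIFM1 replicate 2, 0.70 and 1.18 in NUMA1, and -0.35 and 0.16 in RANGAP1. Values for MT-TP were 9.03 in RNF219, 2.11 and 2.91 with VIM, 1.80 and 3.25 in ZNF184, 0.09 and 1.85 in AIFM1, 0.98 and 1.32 in NUMA1, and 0.30 and 0.05 in RANGAP1. At both tRNAs RNF219 was far above the rest, the mean of RANGAP1 was nearest to input, at -0.09 for MT-TG and 0.17 for MT-TP, and the VIM and ZNF184 replicates overlapped.

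The cluster of MT-TH, MT-TS2 and MT-TL2, 3 tRNAs that lie end to end between 12140 and 12338, differed among its members. MT-TH had 6.95 in RNF219, 1.60 and 2.71 with VIM, -0.95 and 0.54 in ZNF184, 1.58 and 3.20 in AIFM1, -0.08 and 0.32 in NUMA1, and -0.30 and -0.87 in RANGAP1. At MT-TS2, with no significant peak in any library, the log2 fold was -0.09 in RNF219, 1.89 and 2.34 with VIM, -3.49 and -3.38 in ZNF184, -2.04 in AIFM1 replicate 2, -1.70 and -1.50 in NUMA1, and -1.75 and -2.24 in RANGAP1. It was thus below input in 8 of 10 libraries, and VIM alone had it above. The RNF219 value had a 95% interval of -0.55 to 0.37, taken from the least read numbers. In VIM the median log2 fold off the mitochondrial chromosome was 2.27 and 2.22, near the MT-TS2 values. By rank in its own list the MT-TS2 peak was at 58.0% in VIM replicate 1 and at 37.4% in replicate 2. MT-TL2 had 2.04 in RNF219, 1.83 and 3.24 with VIM, 0.58 and 1.99 in ZNF184, 3.27 in AIFM1 replicate 2, -0.04 and 0.34 in NUMA1, and 0.13 and 0.28 in RANGAP1. The AIFM1 value rests on 18 reads against 1 (or 0) and was not significant, and the 1 significant peak was that of VIM replicate 2.

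The remaining tRNAs had few peaks. MT-TI had 6.39 in RNF219, 1.06 in VIM replicate 2, 1.0 and 2.15 in ZNF184 and -1.56 in RANGAP1 replicate 2. MT-TT had 4.51 in RNF219, 1.61 in VIM replicate 2, 1.50 in ZNF184 replicate 2 and -0.0022 in RANGAP1 replicate 1. Only the RNF219 peaks of these 2 tRNAs were significant. MT-TL1 had 2.80 in AIFM1 replicate 2, 0.51 and 1.09 in NUMA1 and -0.50 in RANGAP1 replicate 1, and MT-TE had 2.45 in VIM replicate 2 from 5 reads against 3, with none of these significant.

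Set against the tRNA peaks of its own library, no tRNA passed the test after adjustment, and MT-TF and MT-TS2 came nearest. For each of the 9 tRNAs covered with all 6 proteins, the log2 fold minus the median of all tRNA peaks in the library was averaged over replicates and tested over proteins with an exact sign-flip permutation test (2-sided). MT-TF averaged 0.95 ± 0.51 above that median (SD, n = 6 proteins), with a positive value in 6 of 6 proteins and 9 of 10 libraries, with p = 0.03125 by this exact test, the lowest it can give, and 0.141 after adjustment over 9 tRNAs. MT-TS2 averaged -3.64 ± 2.15, below 0 in 6 of 6 proteins and 10 of 10 libraries, with the same exact p and adjusted value. MT-TY averaged 1.43 ± 1.23, above 0 in 5 of 6 proteins and 10 of 11 libraries (exact p = 0.0625, adjusted 0.188), the exception being RNF219. For the other 6 tRNAs the exact p was 0.25 or more. None of the 9 was below 0.05 after adjustment, and 2 were before it. With 0.03125 as the lowest p, an adjusted value under 0.05 needs most of the 9 tRNAs to reach it. The adjusted test could therefore not single out a few tRNAs, and its outcome says little about MT-TF or MT-TS2.

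Proteins other than RNF219 were compared in the same way as RNF219, by the median over the tRNA peaks of a library. The medians were 2.63 and 3.53 with VIM, 1.50 and 3.01 in ZNF184, 1.58 and 2.54 in AIFM1, 0.70 and 0.95 in NUMA1, and 0.06 and -0.11 in RANGAP1. RANGAP1 averaged -0.02 ± 0.12 (SD, n = 2), against 2.51 ± 1.66 in the other libraries (n = 9), and the difference of -2.53 gave p = 0.0909 by exact permutation, or 0.273 after adjustment. NUMA1 differed by -1.49 (exact permutation p = 0.345), VIM by 1.26 (0.382), ZNF184 by 0.25 (0.855) and AIFM1 by 0.01 (1). The median log2 fold off the mitochondrial chromosome was 2.27 and 2.22 in the VIM libraries, against 0.68 to 1.42 in the other 9. The 2.27 of VIM replicate 1 equals the log2 of its depth ratio, the fold of equal eCLIP and input read numbers. With each library centred on that median the VIM difference was 0.21 and the AIFM1 difference 0.58. With 55 choices of 2 libraries out of 11 the smallest p is 0.0182, and no value adjusted over 6 proteins can fall below 0.05 in this design.

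On average the tRNA log2 folds were more alike between replicates than between proteins. The distance of 2 libraries was the mean absolute difference of their log2 folds over shared tRNAs. The overall level of a library's tRNA folds enters it as well as the pattern over tRNAs, and these were not tested apart. The distance was 0.81 ± 0.35 (SD) over the 5 replicate pairs, against 1.82 ± 0.69 over the 40 pairs of different proteins. The difference of -1.01 had p = 0.00106 by exact permutation (2-sided) over the 945 ways to pair 10 libraries, which is the smallest p they allow. NUMA1 had the closest replicates, at 0.33, and AIFM1 the farthest, at 1.09 over 5 shared tRNAs, while the 10 pairs with RNF219 lay at 4.36 ± 0.92. The AIFM1 pair was an exception: AIFM1 replicate 1 was nearer to RANGAP1 replicate 1, at 0.95, and to NUMA1 replicate 2, at 1.01, than to AIFM1 replicate 2. Replicates of a protein share their input, and all 4 peaks with equal borders in both replicates had equal input reads, so protein and input cannot be told apart here.

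**Figure D2:**
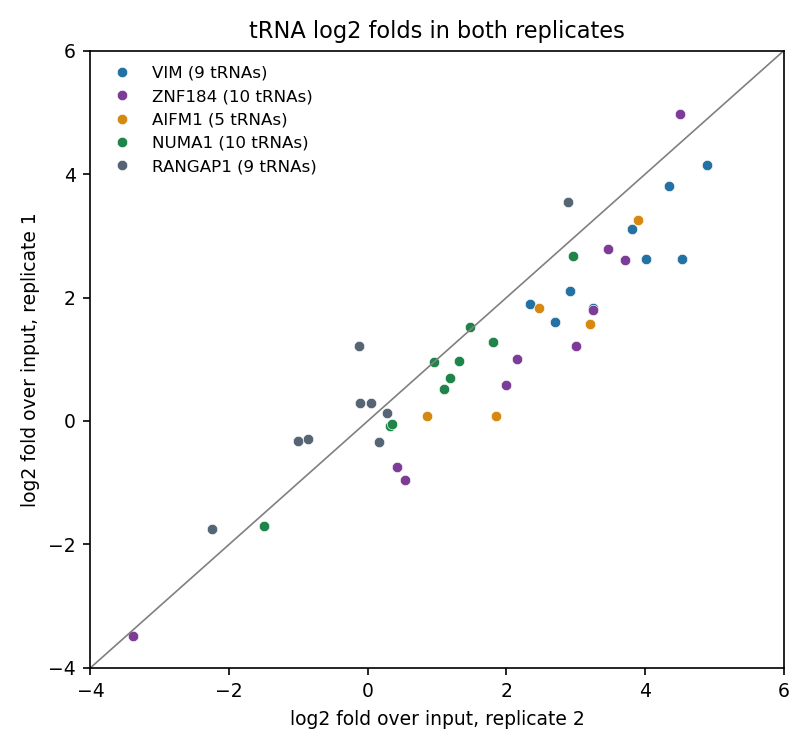
Log2 fold over input of each tRNA in replicate 2 (horizontal axis) and replicate 1 (vertical axis) of the 5 proteins with both, 1 point for each tRNA with a peak in both libraries, with the line of equality. Most VIM, ZNF184 and AIFM1 points lie below the line, higher in replicate 2, while 7 of 9 RANGAP1 points lie above it.

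Replicates differed by a shift over most tRNAs. Replicate 2 minus replicate 1 averaged 1.09 in AIFM1 (higher in 5 of 5 tRNAs), 1.0 in VIM (9 of 9), 0.99 in ZNF184 (9 of 10), 0.32 in NUMA1 (9 of 10) and -0.42 in RANGAP1 (2 of 9). The median fold of peaks off the mitochondrial chromosome did not move along with it: the same differences there were -0.49 in AIFM1, -0.05 in VIM, 0.06 in ZNF184, -0.03 in NUMA1 and 0.18 in RANGAP1. The tRNAs significant in both replicates, out of those significant in either, were 3 (MT-TF, MT-TM and MT-TY) of 6 in VIM, 2 (MT-TF and MT-TV) of 5 in ZNF184, 1 (MT-TY) of 3 in AIFM1, and 0 of 1 in RANGAP1.

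The tRNAs were also set against the rest of the mitochondrial transcripts. Significant peaks made up 45 of 141 tRNA peaks (31.9%), against 37 of 577 peaks on the ribosomal RNAs (6.41%) and 16 of 732 other plus strand peaks (2.19%). With at least 10 input reads the counts were 36 of 122 (29.5%), 33 of 573 (5.76%) and 0 of 639. Without that minimum, the significant peaks outside the tRNAs were all in RNF219 and AIFM1. RNF219 had 26 of 88 on ribosomal RNAs (29.5%) and 13 of 72 on the other plus strand (18.1%), against 0.926% of its list. AIFM1 replicate 2 had 10 of 44 and 3 of 58 (0.214% of its list), and replicate 1 had 1 of 30 and 0 of 39 (0.216%). The tRNA median minus the ribosomal RNA median was 3.16 ± 2.39 on the log2 scale (SD, n = 6 proteins), positive in 5 of 6 proteins and 10 of 11 libraries (exact sign-flip permutation p = 0.0625); without NUMA1 replicate 1 it was 3.22 (exact permutation p = 0.03125). By protein it was 6.23 in RNF219, 5.08 in ZNF184, 3.93 in VIM, 2.53 in AIFM1, 1.50 in RANGAP1 and -0.28 in NUMA1. NUMA1 was the only protein with a ribosomal RNA median above input, at 1.29 and 0.92.

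Against the other plus strand peaks the tRNA median was 2.13 ± 1.46 higher, in 6 of 6 proteins and 11 of 11 libraries, with an exact sign-flip permutation p of 0.03125, the smallest possible. The difference was 4.03 in RNF219, 3.56 in VIM, 2.49 in ZNF184, 1.29 in NUMA1, 0.79 in AIFM1 and 0.62 in RANGAP1. Without RNF219 it was 1.75 with p = 0.0625, the smallest that exact test can give over 5 proteins. The tRNA peaks of the minus strand, nearly all on MT-TY and MT-TP, were 1.08 ± 1.04 above those of the plus strand, in 5 of 6 proteins and 10 of 11 libraries (exact permutation p = 0.0625). That value rested on MT-TY, since it was 0.50 without MT-TY (exact permutation p = 0.5), and it was 1.20 without VIM replicate 2 (exact permutation p = 0.03125). All 3 comparisons had an adjusted p of 0.0625 by the exact test.

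**Figure D3:**
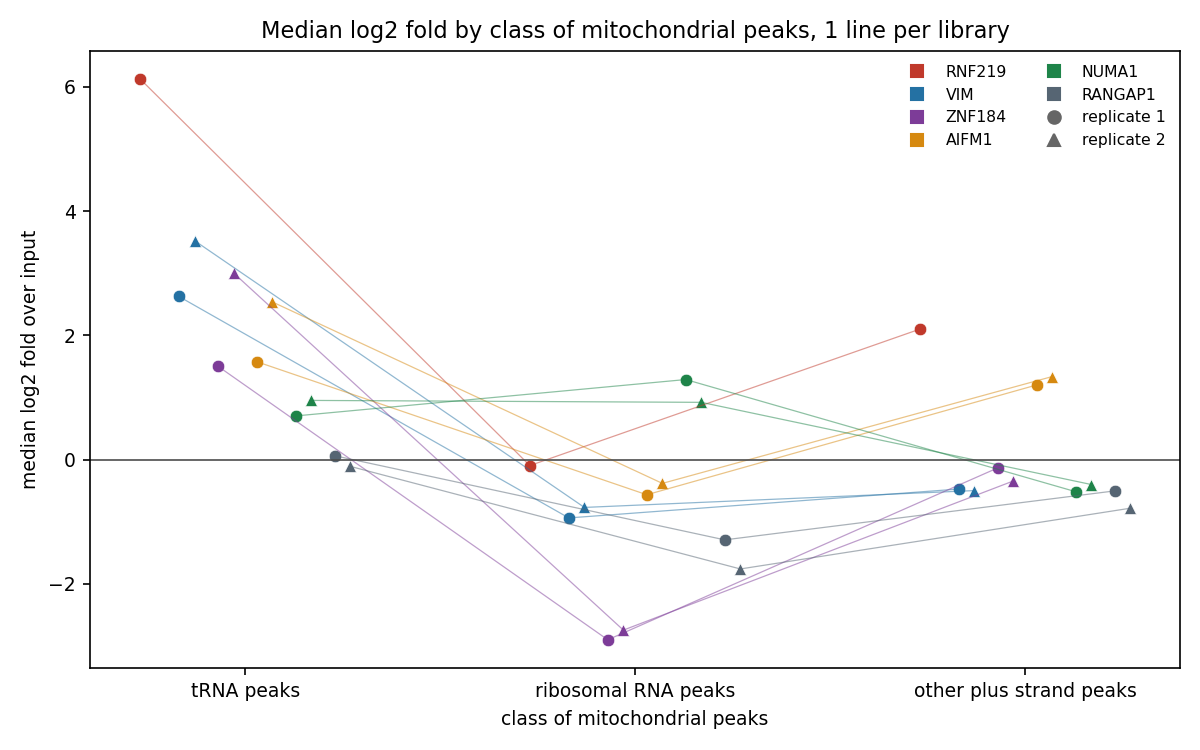
Median log2 fold over input (vertical axis) of the peaks on tRNAs, on mitochondrial ribosomal RNAs and elsewhere on the plus strand of the mitochondrial chromosome (horizontal axis), with 1 line for each of the 11 libraries, colours for proteins and circles and triangles for replicates 1 and 2. In every library the tRNA median is above that of the other plus strand peaks, and only NUMA1 replicate 1 has it below that of the ribosomal RNAs.

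The peaks of a tRNA covered a similar stretch in most libraries. Counted from 1 at the 5′ end of the tRNA, the covered stretch of MT-TY began at nt 35 to 37 in all 11 libraries and ended at nt 61 to 66, the last being its final base. MT-TP was covered between median positions 37 and 67 of its 68 nt, and MT-TH between 32 and 60 of 69. Coverage of MT-TM, between 18 and 57 of 68 nt, and of MT-TG, between 19 and 56.5 of 68, was broader and nearer to the middle. MT-TV was covered between 15 and 49 of 69 nt and MT-TL2 between 17.5 and 48.5 of 71. MT-TF varied most, with a first base between 11 and 39. ZNF184 and NUMA1 had an extra piece on its 5′ side. The single peaks of RNF219 and RANGAP1 replicate 2 began at nt 19 and nt 30.

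The first bases of a tRNA were rarely inside a peak. Of the 109 combinations of a tRNA and a library, 99 began after nt 10, and the 10 that did not were all MT-TS2, which began at a median of nt 4. The centre of the covered stretch lay in the 3′ part of the tRNA in 72 of the 109. It did so in every library for MT-TY, MT-TP, MT-TH and MT-TM. The same held in the libraries with a peak for MT-TI (5), MT-TT (4) and MT-TE (1). In no library did the centre lie there for MT-TV, MT-TS2 and MT-TL1. The borders of a peak are those the authors' lists give, and a base outside them may still have been bound.

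**Figure D4:**
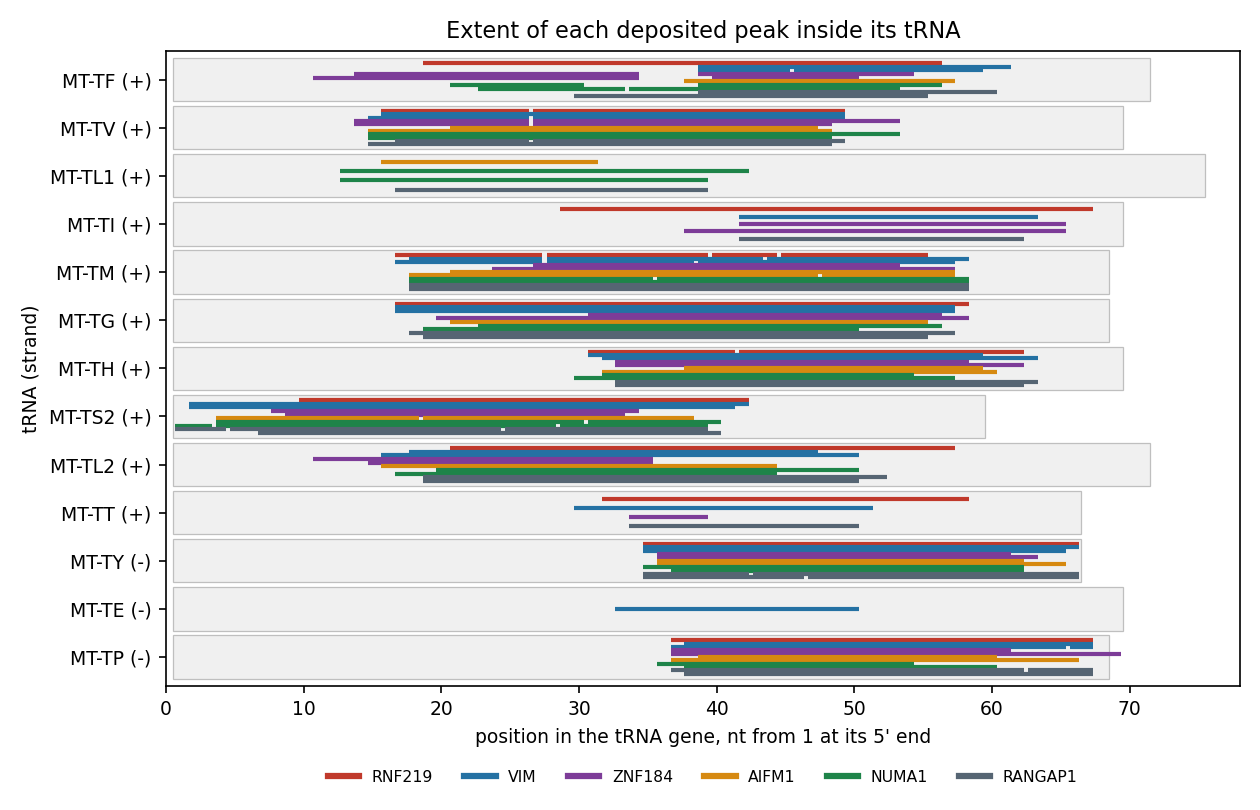
Extent of each deposited peak inside its tRNA, in nt from 1 at the 5′ end (horizontal axis), for the 13 tRNAs with a peak (rows; grey boxes are the whole tRNA, with its strand). Each coloured line is 1 peak, with a track for each library and colours for proteins; MT-TY, MT-TP and MT-TH are covered on the 3′ side, and only MT-TS2 is covered at its first 10 nt.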

How the data were processed

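The 17 samples of 293T cells (11 eCLIP libraries and 6 inputs) were grouped by protein and replicate from the sample titles. Per the submitters' processing notes, the tools were STAR, SAMtools, Picard, GATK and cutadapt (versions unstated) on hg19. The peak caller was not given in the sources used here, nor was any removal of duplicates. The authors deposited 1 peak list per eCLIP library, not pooled, with a -log10 p-value (column 4, between 0 and 400) and a log2 fold over the input (column 5) for each peak, per the values in the lists. A p-value of 0 on the -log10 scale was deposited for 28 tRNA peaks, 30 were at 400, and 5 were at 15.7, the end of an exact test's range (2.2e-16). Peaks carry no tRNA name: names were taken from the RefSeq gene table, whose assembly is another build. The borders of its tRNA genes, shifted by 1 or 2 nt, were matched to those of the intervals. The strand is that of the interval, and coordinates printed are those of the hg19 lists.

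Reads were recovered from the log2 folds, which are ratios of whole numbers times 1 constant per library (tolerance 1e-09). With the chosen constant 100% of sampled p-values were met by an exact binomial or continuity-corrected chi-square test (log10 tolerance 0.005), against 10.8 to 32.2% with the next best constant, and 75 of 141 tRNA peaks were settled. The other peaks have least numbers only. A tRNA's value in a library is the median of its peaks. The tests were exact permutation tests over libraries or sign flips over proteins, 2-sided, with Benjamini-Hochberg adjustment over 6 proteins, 9 tRNAs or 3 class comparisons; their code was tested on simulated data. Python 3.11.15, numpy 2.4.6, pandas 2.3.3, SciPy 1.17.1 and matplotlib 3.10.9 were used.

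All tRNAs with a significant peak are described library by library, and single peaks named are the 3 highest significant ones of each library, with others chosen after their values were seen. Members, lists and tests were chosen with earlier results of these data known. Alternatives were the mean in place of the median, a minimum of 10 input reads, peaks wholly inside a tRNA, centring on peaks off the mitochondrial chromosome, the highest peak of a tRNA, other thresholds, each library left out, and the replicate number as a block. Merging abutting peaks, taking 1 value per tRNA and leaving out MT-TY were added after seeing the data. Replicate numbers come from the titles, which state no shared batch. The differences of replicate 2 minus replicate 1 over tRNAs correlated between proteins with r of 0.10 to 0.75 in the 10 pairs of proteins, over 5 to 9 tRNAs each, so the numbers were treated as pairing the libraries in the alternative with a block.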

Additional observations from a re-analysis of the deposited data

Results flagged for a closer look

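At 3 tRNAs both replicates of 1 protein were above input and both of another were below it. None of these differences was tested, and the pairs were picked as the most distant, so the sizes are descriptions. They are in deposited folds, without centring by library. The median log2 fold off the mitochondrial chromosome was 2.27 and 2.22 in VIM, against 1.23 and 1.29 in ZNF184 and 1.24 and 1.42 in RANGAP1. At MT-TS2 the mean log2 fold was 2.12 in VIM and -3.43 in ZNF184, a difference of 5.55, with NUMA1 and RANGAP1 also below input in both replicates. At MT-TM it was 4.08 in VIM and -0.66 in RANGAP1, a difference of 4.74, with AIFM1 and NUMA1 also above input. At MT-TH it was 2.39 in AIFM1 and -0.58 in RANGAP1, a difference of 2.97, with VIM also above. No group had 4 or more libraries, so no library was tested as lying far from its group.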

How the results depend on the processing

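Of 193 recomputed values 176 were classed as unchanged. For a tested difference this meant the same direction and the same side of the threshold. In the comparisons of each protein with the others, no value adjusted over 6 proteins could cross the threshold, so only direction could change. Counts have no direction: the 31 significant peaks left without RNF219, against 45 in all, were classed as unchanged. The comparisons of AIFM1 and ZNF184 with the other libraries, both near 0, had no stable direction: AIFM1 was -0.22 with the mean over peaks and between -0.47 and 0.52 with a library left out (below 0 at -0.47, -0.26, -0.24, -0.16, -0.12 and -0.06), and ZNF184 was -0.36 with 1 value per tRNA and between -0.50 and 1.0 with a library left out (below 0 at -0.50 and -0.0097). With a library left out the others ran between -1.79 and -1.01 for NUMA1, -2.76 and -2.08 for RANGAP1, 4.30 and 4.70 for RNF219, and 0.81 and 1.80 for VIM. Centring each library on its peaks off the mitochondrial chromosome gave 4.85 for RNF219, 0.21 for VIM, 0.41 for ZNF184, 0.58 for AIFM1, -1.45 for NUMA1 and -2.45 for RANGAP1. With the replicate block the differences were 4.84 for RNF219, 1.28 for VIM and 0.28 for ZNF184. They were 0.03 for AIFM1, -1.48 for NUMA1 and -2.53 for RANGAP1. The adjusted exact permutation p of these differences ran between 0.50 and 0.967. The number of significant tRNA peaks was 25 with a log2 fold of at least 4 (0.928% of all peaks), 81 with at least 1 (6.47%), and between 31 and 45 with a library left out, the lowest without RNF219; merging abutting pieces left RNF219 with 9. The tRNA minus ribosomal RNA difference was 3.22 without NUMA1 replicate 1 (exact p = 0.03125; range over libraries left out 2.55 to 3.28), that against other plus strand peaks 1.75 without RNF219 (exact p = 0.0625; range 1.75 to 2.27), and the strand difference 1.37 with the mean over peaks and 1.20 without VIM replicate 2 (exact p = 0.03125 each; range 0.97 to 1.20); where a protein is lost the exact test has fewer choices, and otherwise the cause was not tested. The profile distance stayed between -1.16 and -0.78 with a replicate pair left out (exact permutation p = 0.00952, the smallest then possible) and was -0.728 after centring (exact permutation p = 0.00212). The 3 highest RNF219 folds have 1 or 2 input reads at the least, and with at least 10 input reads the RNF219 difference was 4.45. Only 7 of the 16 RNF219 tRNA peaks passed that minimum, and 4 of them were abutting pieces of MT-TM. Where reads were not settled, the minimum was applied to the least numbers.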
